A study of Mus musculus with 16 samples.

Results

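Ssu72 and 9 other genes whose products take phosphate off the tail of RNA polymerase II (Pol II), or hold such an enzyme in place, were followed in cells infected to delete Ssu72. The 10 genes were chosen by name for their role, with earlier results of these data known, and all 10 were found among the 23996 genes of each table. They are Ssu72 and its scaffold Sympk, Ctdp1, Rpap2, the tail-binding adaptors Rprd1a, Rprd1b and Rprd2, and the small phosphatases Ctdsp1, Ctdsp2 and Ctdspl.

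RNA was sequenced from MEFs (mouse embryonic fibroblasts of embryonic day 13.5), hepatocytes and ES cells (embryonic stem cells of the inner cell mass), all of the C57BL/6 strain, in 16 samples. In every group, Ad-Luc included, the cells were Ssu72 f/f, which means that they carried loxP sites around exon 1 of Ssu72. The Ad-Cre groups were infected with an adenovirus for Cre recombinase and are labelled Ssu72 KO, and the Ad-Luc groups were infected with a luciferase adenovirus and are labelled WT. There were 3 Ad-Cre and 3 Ad-Luc samples of MEFs, 3 and 3 of hepatocytes, and 2 and 2 of ES cells. The hepatocytes came from mice of 6 weeks in the labels and of 5 weeks in the methods, and the methods speak of 3 independent experiments without saying whether these were separate animals or cultures, while ES cells had 2 samples a group. Infection was carried out in culture with a PTD peptide in medium of low serum. In the ES cell table the names of the Ad-Luc samples carry the letters FS where those of Ad-Cre carry ES, and they were taken as the ES cell control.

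The tail, or C-terminal domain (CTD), is a run of repeated heptapeptides on the largest Pol II subunit, and its phosphate marks change as the enzyme starts, elongates and terminates. Kinases add phosphate to the serines of the repeat, and phosphatases remove it so that Pol II can be used again. Ssu72 acts mainly on the serine at the fifth position, in a complex with the scaffold protein symplekin, and FCP1, the product of Ctdp1, acts mainly on the serine at the second position.

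Each table gives 1 FPKM value per gene and group (fragments scaled to the length of the transcript and to the number of fragments mapped), which the authors made from all samples of that group. An FPKM value therefore has no SD and no n here, the depth behind it is unknown, and no difference below was tested against the spread between samples. A gene was counted as higher or lower when the group values differed by more than 1.5-fold. Among genes with a mean of at least 1 FPKM, 7.42% were higher and 8.58% lower in Ad-Cre MEFs. In hepatocytes the shares were 5.7% higher and 5.69% lower, and in ES cells 2.02% higher and 0.722% lower. This split depends on the scale. With ribosomal centring (ratios set against the median ribosomal protein gene), 3.75% were higher and 18.2% lower in MEFs, and 1.21% higher and 2.61% lower in ES cells. Centred on the housekeeping genes, the shares were 4.77% and 12.8% in MEFs, and 1.53% and 1.23% in ES cells. All 10 members reached 1 FPKM in each cell type. In each of them 1 member, Ssu72, was lower by this measure, and none was higher.

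Ssu72 lies on chromosome 4 at chr4:155704815-155733873 (mm10, as deposited), and GENCODE M21 gives it 5 exons on the plus strand. Exon 1 holds 662 of the 1472 bases of the transcript and the start codon. Its coding part, at chr4:155705382-155705461, is shown because the paper describes Cre as deleting exon 1. The results of the paper place loxP sites on both sides of exon 1, while its methods place 1 site inside that exon, so the exact end of the deletion is not known here. Capitals mark codons 12 to 18, which run from the catalytic cysteine to the arginine of the phosphatase motif.
Ssu72 exon 1, coding part: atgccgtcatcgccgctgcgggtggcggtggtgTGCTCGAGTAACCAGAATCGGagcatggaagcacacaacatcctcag

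These 80 bases encode 26 whole codons of the 194 residues of the protein. Exons 2 to 5 make up 810 bases, or 55% of the transcript. The Ssu72 value of a table is one for the gene as a whole, so a transcript that lacked exon 1 alone would still be counted through the remaining exons. The qPCR primers of the study are shown because the forward primer lies in exon 1, at chr4:155705438-155705460 and so ending 1 base before the end of that exon, while the reverse primer lies in exon 3, at chr4:155731363-155731385 on the minus strand, so that their product of 229 bases needs exon 1.
Ssu72 forward primer: catggaagcacacaacatcctca
Ssu72 reverse primer: tggacggggcttgatccttttat

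Ssu72 had 3.69 FPKM in Ad-Cre MEFs, against 22.7 FPKM in Ad-Luc MEFs (log2 ratio −2.62, 6.14-fold lower). In hepatocytes it had 5.12 FPKM with Ad-Cre, against 26 FPKM with Ad-Luc (log2 ratio −2.34, 5.08-fold lower). ES cells kept more of it, with 44.7 FPKM in Ad-Cre ES cells against 99.2 FPKM in Ad-Luc ES cells (log2 ratio −1.15, 2.22-fold lower). The Ad-Cre level was thus 16.3% of the Ad-Luc level for MEFs, 19.7% for hepatocytes and 45.1% for ES cells. The paper reports an efficient reduction of Ssu72 by Ad-Cre in each of these cell types, in a supplementary figure that was not compared here. In bulk RNA, fewer cells with an intact gene and less Ssu72 RNA in each cell cannot be told apart. Nor can intact Ssu72 RNA be told from RNA that lacks exon 1, so the share left is not one of intact transcript. The differences between cell types in the share left have no error here and were not tested.

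**Figure D1:**
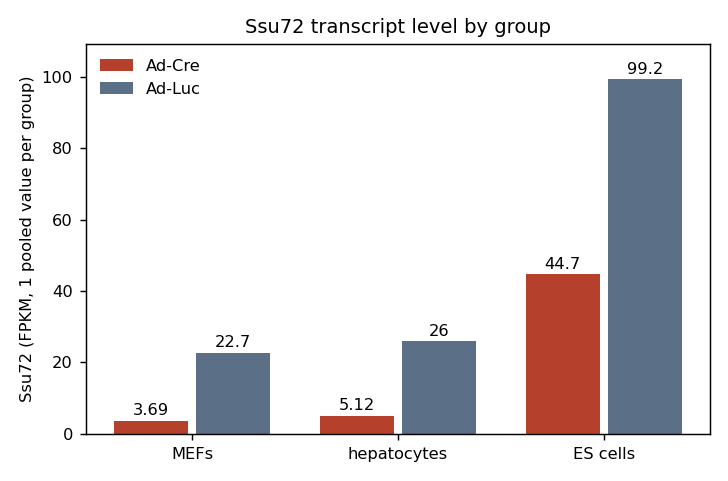
Ssu72 level (y axis, FPKM, from 0) in MEFs, hepatocytes and ES cells, with Ad-Cre (red) left of Ad-Luc (blue) and 1 pooled value per bar, so no error bars. The Ad-Cre bar is lower in each cell type, and the Ad-Cre ES cells, at 44.7 FPKM, stand above the Ad-Luc MEFs at 22.7 FPKM and the Ad-Luc hepatocytes at 26 FPKM.

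Few transcripts had a lower ratio than Ssu72. Of the genes of at least 1 FPKM whose ratio is finite, 5 of 12149 had a lower log2 ratio for MEFs, 10 of 11733 for hepatocytes and 12 of 11872 for ES cells. In Ad-Cre MEFs Ssu72 stood at percentile 22.0 of the genes of at least 1 FPKM, against percentile 69.8 in Ad-Luc MEFs. The Ad-Cre hepatocytes had it at percentile 26.1, against percentile 72.5 with Ad-Luc, and the Ad-Cre ES cells at percentile 82.3, against percentile 92.3. The gene therefore stood below the middle of the expressed genes in MEFs and hepatocytes and remained among the abundant ones in ES cells.

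The Ad-Luc level of Ssu72 was highest in ES cells. The tables were normalised separately, so levels of different cell types are set side by side only. In FPKM, Ad-Luc ES cells had 4.38 times the level of Ad-Luc MEFs and 3.82 times that of Ad-Luc hepatocytes, while the median gene had 1.27 and 1.21 times. Ad-Cre ES cells still had 1.97 times the Ssu72 level of Ad-Luc MEFs and 1.72 times that of Ad-Luc hepatocytes. The order of the Ad-Luc levels, ES cells above hepatocytes above MEFs, was the same when FPKM were divided by the sum of their group, by the median of 12 housekeeping genes, or turned into percentiles. Hepatocytes and MEFs differed by 1.15 times in FPKM and by 2.03 times relative to the housekeeping genes, so the distance between them depends on the scale.

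Sympk (chr7:19024377-19054622) encodes symplekin, the scaffold of the cleavage and polyadenylation machinery that binds Ssu72 and activates it. The paper also cites a proteomic study that found mammalian Ssu72 not to be associated with polyadenylation factors. Sympk had 58.2 FPKM in Ad-Cre MEFs, against 45.3 FPKM in Ad-Luc MEFs (log2 ratio 0.36). In hepatocytes the levels were 76.2 FPKM with Ad-Cre and 63.8 FPKM with Ad-Luc (0.26), and in ES cells 112 FPKM with Ad-Cre and 91.4 FPKM with Ad-Luc (0.29). Sympk was thus a little higher with Ad-Cre in each cell type, by 1.29-fold at most, and it stayed on that side of 0 under each scaling tried. Its log2 ratio lay at percentile 82.9 of all genes of at least 1 FPKM in MEFs, percentile 81.3 in hepatocytes and percentile 92.3 in ES cells.

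The balance between the transcripts of the enzyme and its scaffold differed between the viruses, and protein was not measured in these data. The ratio of Ssu72 to Sympk, both in FPKM and so per length, was 0.0634 in Ad-Cre MEFs against 0.501 in Ad-Luc MEFs. It was 0.0671 in Ad-Cre hepatocytes against 0.407 in Ad-Luc hepatocytes. In ES cells it was 0.399 with Ad-Cre against 1.09 with Ad-Luc. Ad-Luc ES cells were the group in which Ssu72 was above Sympk, and with Ad-Cre their ratio was near that of the Ad-Luc cells of the other types.

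Ctdp1, on chromosome 18, encodes FCP1, a CTD phosphatase that is needed to recycle Pol II. Its level was 12.1 FPKM in Ad-Cre MEFs, against 10.5 FPKM in Ad-Luc MEFs (log2 ratio 0.21). It was 16.1 FPKM in Ad-Cre hepatocytes, against 12.1 FPKM in Ad-Luc hepatocytes (0.41), at percentile 90.2 of all genes. In ES cells it was 27.0 FPKM with Ad-Cre, against 23.6 FPKM with Ad-Luc (0.20). The Ad-Cre value was higher in each table, but by 1.33-fold at most, and centred on the ribosomal protein genes the log2 ratio was −0.05 in MEFs and −0.01 in ES cells.

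Rpap2 (chr5:107534711-107661853) encodes the mammalian counterpart of yeast Rtr1, which acts on the serine at the fifth position and also takes part in the assembly and import of Pol II. Ad-Cre MEFs had 8.18 FPKM and Ad-Luc MEFs 6.30 FPKM (log2 ratio 0.38). Ad-Cre hepatocytes had 7.77 FPKM and Ad-Luc hepatocytes 6.56 FPKM (0.24), and ES cells had 18.2 FPKM with Ad-Cre and 17.6 FPKM with Ad-Luc (0.05). The ES cell value lay at percentile 58.7 of the ratios of all genes, and it went to −0.16 centred on the ribosomal protein genes and to −0.06 centred on the housekeeping genes. The deposited position of Rpap2 on chromosome 5 is shared with Glmn, 1700028K03Rik and A930041C12Rik, and the value of each depends on how the quantification (Partek E/M in the methods, Cuffdiff in the processing notes) divided fragments among them. Glmn had 5.91 FPKM with Ad-Cre against 4.97 FPKM with Ad-Luc in MEFs, and the remaining genes of that position were below 1 FPKM in every group.

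The Rprd genes encode adaptors with a CTD-interacting domain, and RPRD1A and RPRD1B were found in human cells to bind the phosphorylated tail and bring RPAP2 to it. Rprd1a, on chromosome 18, had 8.24 FPKM in Ad-Cre MEFs, against 6.01 FPKM in Ad-Luc MEFs (log2 ratio 0.45, 1.37-fold), the highest ratio among the members in MEFs. It had 6.22 FPKM in Ad-Cre hepatocytes, against 5.40 FPKM in Ad-Luc hepatocytes (0.20), and 21.9 FPKM in Ad-Cre ES cells, against 18 FPKM in Ad-Luc ES cells (0.29, percentile 91.8). Rprd1a kept a positive log2 ratio in each cell type under each scaling. Its paralogue Rprd1b (chr2:158028497-158091797), whose coding sequence translates to a protein with 68.6% identical residues, was nearer to 1 in its ratios. Rprd1b had 5.64 FPKM with Ad-Cre against 6.07 FPKM with Ad-Luc in MEFs (−0.11), 5.27 against 5.10 FPKM in hepatocytes (0.05), and 16.4 against 15.3 FPKM in ES cells (0.11, or −0.10 centred on the ribosomal protein genes). It shares its deposited position with 2010009K17Rik, which had at most 0.109 FPKM in any group.

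Rprd2 (chr3:95759873-95818953), a larger relative with the same type of domain, had the lower value with Ad-Cre in MEFs and ES cells and was level in hepatocytes. It had 3.19 FPKM in Ad-Cre MEFs, against 3.95 FPKM in Ad-Luc MEFs (log2 ratio −0.31). In ES cells it had 6.11 FPKM with Ad-Cre, against 7.44 FPKM with Ad-Luc (−0.28), at percentile 5.7 of all genes. Hepatocytes had 4.55 FPKM in both groups, and there the log2 ratio was 0.07 centred on the ribosomal protein genes and 0.06 centred on the housekeeping genes.

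**Figure D2:**
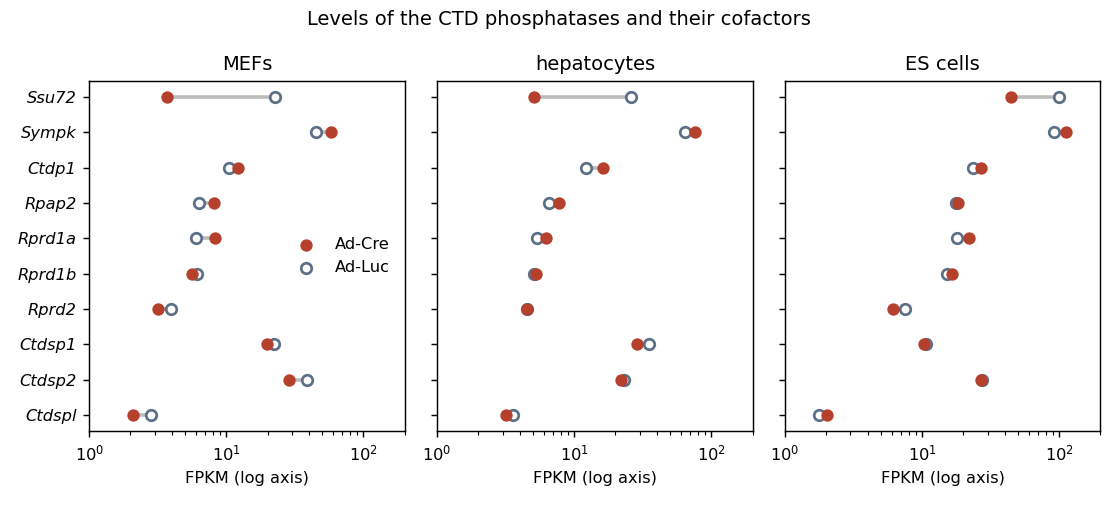
Level of each of the 10 genes (x axis, FPKM on a log scale) in MEFs, hepatocytes and ES cells, with Ad-Cre as filled red points, Ad-Luc as open blue points and a grey line between the 2 pooled values of a gene. Ssu72 has the one long line in each panel, the other 9 genes have points that nearly coincide, and Sympk lies far right while Ctdspl lies far left.

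Ctdsp1, Ctdsp2 and Ctdspl encode the small CTD phosphatases (SCPs), which share the catalytic fold of FCP1 and are known for keeping neuronal genes silent outside the nervous system through the repressor REST. They are unrelated in sequence to Ssu72, and aligned over the shorter protein Ssu72 and Ctdsp1 have 23.7% identical residues. The stretch around the catalytic site is shown because it is what the 3 SCPs share. Each line is 60 coding bases of GENCODE M21, from chromosome 1 for Ctdsp1, chromosome 10 for Ctdsp2 and chromosome 9 for Ctdspl, and capitals mark the 5 codons of the catalytic motif that starts with the aspartate to which the phosphate is transferred.
Ctdsp1: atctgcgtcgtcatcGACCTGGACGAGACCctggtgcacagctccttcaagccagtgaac
Ctdsp2: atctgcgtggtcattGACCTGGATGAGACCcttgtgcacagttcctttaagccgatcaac
Ctdspl: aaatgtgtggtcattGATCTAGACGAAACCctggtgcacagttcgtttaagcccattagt

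The motif covers residues 96 to 100 of 261 in Ctdsp1, 106 to 110 of 270 in Ctdsp2 and 112 to 116 of 276 in Ctdspl. Of the 60 bases, 51 are the same in Ctdsp1 and Ctdsp2, 44 in Ctdsp1 and Ctdspl, and 47 in Ctdsp2 and Ctdspl. Over whole proteins the identity was 62.8% for Ctdsp1 and Ctdsp2, 69.7% for Ctdsp1 and Ctdspl and 65.2% for Ctdsp2 and Ctdspl.

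Ctdsp2 (chr10:126978717-126999975) had 28.5 FPKM in Ad-Cre MEFs, against 39.0 FPKM in Ad-Luc MEFs (log2 ratio −0.45, 1.37-fold lower). In hepatocytes it had 22.1 FPKM with Ad-Cre and 23.2 FPKM with Ad-Luc (−0.07, or 0.00 centred on the ribosomal protein genes), and in ES cells 26.7 FPKM with Ad-Cre and 27.2 FPKM with Ad-Luc (−0.03). The MEF value is the largest distance from 1 among the members after Ssu72 in that cell type, level with that of Rprd1a on the other side. Centred on the ribosomal protein genes it came to −0.72 and on the housekeeping genes to −0.60, past 1.5-fold in both cases.

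Ctdsp1 (chr1:74391609-74397285) had 28.6 FPKM in Ad-Cre hepatocytes, against 35.0 FPKM in Ad-Luc hepatocytes (log2 ratio −0.29, percentile 14.3). It had 19.9 FPKM in Ad-Cre MEFs, against 22.3 FPKM in Ad-Luc MEFs (−0.16), and 10.4 FPKM in Ad-Cre ES cells, against 10.6 FPKM in Ad-Luc ES cells (−0.02). Ctdspl (chr9:118926536-119044119) was the least abundant member in every group. It had 2.08 FPKM in Ad-Cre MEFs against 2.81 FPKM in Ad-Luc MEFs (−0.43, or −0.70 centred on the ribosomal protein genes), 3.17 against 3.55 FPKM in hepatocytes (−0.17), and 2.03 against 1.76 FPKM in ES cells (0.20).

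Summed over the 3 SCP genes, Ad-Cre MEFs had 50.5 FPKM and Ad-Luc MEFs 64.1 FPKM. The sums were 53.9 FPKM in Ad-Cre hepatocytes and 61.7 FPKM in Ad-Luc hepatocytes, and 39.2 FPKM in Ad-Cre ES cells and 39.6 FPKM in Ad-Luc ES cells. The SCP total was therefore not above its Ad-Luc value in any cell type. Since Ssu72 was lower too, the SCP total relative to Ssu72 was 13.68 in Ad-Cre MEFs against 2.83 in Ad-Luc MEFs, 10.54 against 2.38 in hepatocytes, and 0.88 against 0.40 in ES cells.

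The make-up of the SCP family differed more between cell types than between viruses. Ctdsp2 gave 56.4% of the SCP sum in Ad-Cre MEFs and 60.9% in Ad-Luc MEFs, and 68.2% and 68.8% in Ad-Cre and Ad-Luc ES cells. In hepatocytes Ctdsp1 led, with 53.1% in Ad-Cre and 56.7% in Ad-Luc cells. Ctdspl gave between 4.12% and 5.88% in the 6 groups. The ratio of Ctdsp2 to Ctdsp1 was 1.43 in Ad-Cre MEFs against 1.75 in Ad-Luc MEFs, 0.77 against 0.66 in hepatocytes, and 2.56 against 2.57 in ES cells.

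**Figure D3:**
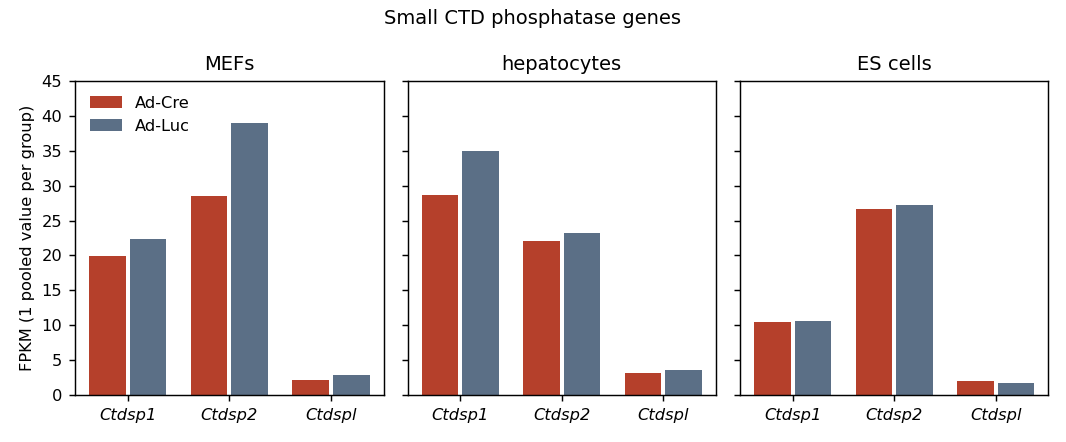
Levels of Ctdsp1, Ctdsp2 and Ctdspl (y axis, FPKM, from 0) in MEFs, hepatocytes and ES cells, with Ad-Cre (red) left of Ad-Luc (blue) and 1 pooled value per bar. Ctdsp2 is the tallest pair in MEFs and ES cells, Ctdsp1 in hepatocytes, and the Ad-Cre bar of Ctdsp2 in MEFs, at 28.5 FPKM, is below its Ad-Luc bar at 39.0 FPKM.

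Each SCP gene carries a microRNA of the miR-26 family in an intron. By RefSeq on GRCm38.p6, Mir26b lies in intron 4 of Ctdsp1, Mir26a-2 in intron 5 of Ctdsp2 and Mir26a-1 in intron 5 of Ctdspl. The mature sequences are shown, with the seed (bases 2 to 8) in capitals, because they have 1 seed in common and so 1 set of predicted targets. Along their shared length they differ at 2 bases.
miR-26b-5p, from Mir26b in Ctdsp1: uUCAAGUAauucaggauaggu
miR-26a-5p, from Mir26a-2 in Ctdsp2 and Mir26a-1 in Ctdspl: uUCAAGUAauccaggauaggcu

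The tables list Mir26a-1 and Mir26a-2 at 0 in all 6 groups. Mir26b was listed at 56.7 FPKM in Ad-Cre MEFs and at 0 in Ad-Luc MEFs, and at 0 in the hepatocyte and ES cell groups, so no fold is given. Its hairpin has 85 bases, and libraries of total RNA such as these are not made to capture mature microRNAs. Mir546, a microRNA entry that shares the position of Ctdsp2, had 104 FPKM in Ad-Cre MEFs against 129 FPKM in Ad-Luc MEFs, 81.0 against 131 FPKM in hepatocytes, and 158 against 227 FPKM in ES cells. These values were lower with Ad-Cre throughout, while Ctdsp2 itself was nearly level in hepatocytes and ES cells. As at the position of Rpap2, each value depends on how the quantification divided fragments among the entries there. The contrast is therefore no result about the microRNA.

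Across the 9 members other than Ssu72, the median log2 ratio was −0.11 for MEFs, 0.05 for hepatocytes and 0.11 for ES cells, where all genes of at least 1 FPKM had medians of 0.03, 0.02 and 0.01. In MEFs 4 of the 9 lay above 0 and 5 below, in hepatocytes 5 and 4, and in ES cells 6 and 3. Their log2 ratios ran from −0.45 to 0.45 for MEFs, from −0.29 to 0.41 for hepatocytes and from −0.28 to 0.29 for ES cells. The middle 50% of all genes lay between −0.22 and 0.26 in MEFs, between −0.15 and 0.19 in hepatocytes and between −0.11 and 0.12 in ES cells. No member other than Ssu72 differed by more than 1.37-fold in any cell type. These medians follow the scale: centred on the ribosomal protein genes they were −0.37 for MEFs, 0.12 for hepatocytes and −0.10 for ES cells. The ribosomal protein genes themselves had median log2 ratios of 0.26, −0.07 and 0.20 in these cell types.

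Sympk, Ctdp1, Rpap2 and Rprd1a (4 of 10) had the higher value with Ad-Cre in each cell type, which 22.4% of the 9883 genes of at least 1 FPKM in all of them did. Ssu72, Rprd2, Ctdsp1 and Ctdsp2 (4 of 10) had the lower value in each, against 14.3% of those genes. Ssu72 is the gene that Ad-Cre was used to delete, so its direction was set by the design and does not bear on that share. For Rprd2 in hepatocytes the difference is below the printed digits (4.55 FPKM in both groups) and is no direction. That leaves Ctdsp1 and Ctdsp2. For Ctdp1 in MEFs and ES cells, Rpap2 in ES cells, and Rprd2 and Ctdsp2 in hepatocytes, the sign changed when ratios were centred on the ribosomal protein genes. Under every scaling tried the direction repeated for Sympk and Rprd1a above 0 and for Ctdsp1, besides the deleted Ssu72, below 0. The share of all genes that keep their direction under every scaling was not computed, so these members have no background to be set against. With 10 genes picked by name while earlier results of these data were known, and no replicate error, these shares are a description.

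**Figure D4:**
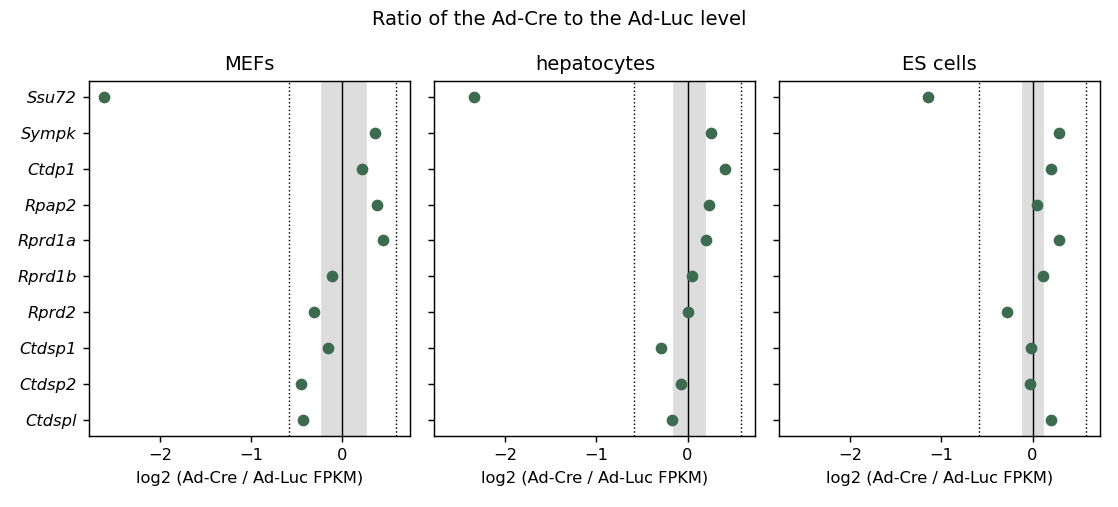
Log2 ratio of the Ad-Cre to the Ad-Luc FPKM (x axis) of the 10 genes in MEFs, hepatocytes and ES cells, with the middle 50% of all genes of at least 1 FPKM as a grey band, dotted lines at 1.5-fold and 1 ratio of pooled values per point. Ssu72, at −2.62, −2.34 and −1.15, is the one point outside the dotted lines, and Sympk, Ctdp1, Rpap2 and Rprd1a lie right of 0 in each panel, although centring on the ribosomal protein genes moves Ctdp1 in MEFs and ES cells and Rpap2 in ES cells to the left of it.

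The levels of the 10 genes differed between cell types, in tables normalised separately. Of the 10 genes, 7 had their highest Ad-Luc value in ES cells, where 48.1% of all genes did. They are Ssu72, Sympk, Ctdp1, Rpap2, Rprd1a, Rprd1b and Rprd2. Ad-Luc ES cells had 2.99 times the Rprd1a level of Ad-Luc MEFs, 2.80 times that of Rpap2, 2.51 times that of Rprd1b and 2.25 times that of Ctdp1. Only Ssu72, at 4.38 times, had a larger ratio among the members. The SCPs were lower in Ad-Luc ES cells than in Ad-Luc MEFs, with 0.475 times the level for Ctdsp1, 0.626 for Ctdspl and 0.698 for Ctdsp2. Against Ad-Luc hepatocytes, Ad-Luc ES cells had 0.303 times the level of Ctdsp1, 0.495 times that of Ctdspl and 1.17 times that of Ctdsp2. The median gene had 1.21 times its hepatocyte level and 1.27 times its MEF level, so Ctdsp2 was near the median gene against hepatocytes. Ctdsp1 and Ctdspl had their lowest Ad-Luc value in ES cells, as 32.1% of all genes did.

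Within a group, FPKM can be compared between genes. Sympk was the most abundant of the 10 in every group but Ad-Luc ES cells, where Ssu72 was first at 99.2 FPKM and Sympk followed at 91.4 FPKM. Ssu72 ranked 8 of 10 in Ad-Cre MEFs against 3 in Ad-Luc MEFs, 8 against 3 in hepatocytes, and 2 against 1 in ES cells. In both Ad-Cre MEFs and Ad-Cre hepatocytes, Rprd2 and Ctdspl alone among the members were below it.

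Other phosphatases of the CTD, and Pol II itself, were followed with 5 lists of 33 genes in all. The lists hold PP1 with its nuclear partner PNUTS (6 genes), the PP2A module of Integrator (6), relatives of FCP1 and the SCPs (4), the subunits of Pol II (12) and the factors that assemble Pol II together with Rpap2 (5). All 33 reached 1 FPKM in each cell type. In MEFs and ES cells 0 of the 33 genes passed 1.5-fold in either direction, where the background was 7.42% higher and 8.58% lower in MEFs, and 2.02% and 0.722% in ES cells. In hepatocytes 1 of the 33 was higher and 0 were lower, where 5.7% of all genes were higher and 5.69% lower.

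That gene was Ppp1r10, which encodes PNUTS, the subunit that brings PP1 to chromatin and slows Pol II at the ends of genes. It had 28.8 FPKM in Ad-Cre hepatocytes, against 14.1 FPKM in Ad-Luc hepatocytes (log2 ratio 1.02, 2.03-fold). The other cell types had smaller differences in the same direction, with 16.3 FPKM in Ad-Cre MEFs against 12.0 FPKM in Ad-Luc MEFs (0.45), and 29.8 FPKM in Ad-Cre ES cells against 24.5 FPKM in Ad-Luc ES cells (0.28). Its partners Wdr82 and Tox4 and the PP1 subunits Ppp1ca, Ppp1cb and Ppp1cc ranged from −0.19 to 0.06 in hepatocytes, so the difference there was one of a single subunit. Ints6, which joins PP2A to Integrator, had 4.41 FPKM in Ad-Cre MEFs against 4.26 FPKM in Ad-Luc MEFs, 7.54 against 7.27 FPKM in hepatocytes and 9.95 against 10.7 FPKM in ES cells.

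Polr2a, which encodes the Pol II subunit that carries the CTD, was slightly lower with Ad-Cre in each table. It had 34.8 FPKM in Ad-Cre MEFs against 38.0 FPKM in Ad-Luc MEFs (log2 ratio −0.13), 34.3 against 36.4 FPKM in hepatocytes (−0.09), and 93.7 against 113 FPKM in ES cells (−0.27). Centred on the ribosomal protein genes it was −0.39 in MEFs, −0.02 in hepatocytes, −0.48 in ES cells, and so below 0 there too. The 12 subunits together had a median of 0.32 in MEFs, with 9 above and 3 below 0, of −0.04 in hepatocytes (4 and 8), and of 0.17 in ES cells (11 and 1). All genes of at least 1 FPKM had medians of 0.03, 0.02 and 0.01. Centred on the ribosomal protein genes the medians of the subunits were 0.06, 0.03 and −0.03, with 7, 8 and 5 of the 12 above 0. The counts on either side of 0 therefore depend on the scale. The assembly factors had medians of 0.37 for MEFs, 0.03 for hepatocytes and 0.20 for ES cells, or 0.11, 0.10 and −0.01 on that scale.

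**Figure D5:**
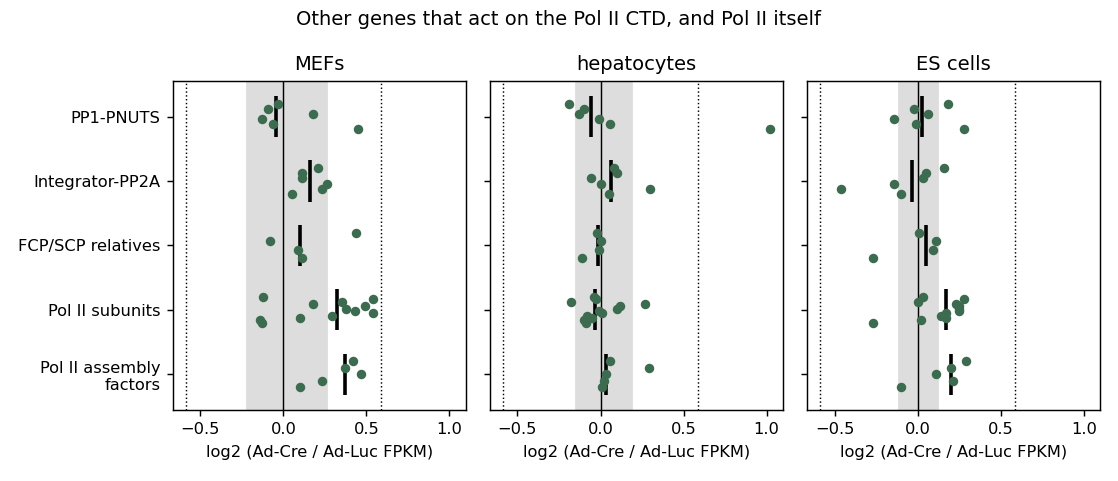
Log2 ratio of the Ad-Cre to the Ad-Luc FPKM (x axis) of 33 genes in 5 lists, in MEFs, hepatocytes and ES cells, with 1 point per gene, a black bar at the median of a list, the middle 50% of all genes as a grey band and dotted lines at 1.5-fold. Ppp1r10 in hepatocytes, at 1.02, is the one point beyond a dotted line, and Pol II subunits have medians of 0.32 for MEFs, −0.04 for hepatocytes and 0.17 for ES cells, which become 0.06, 0.03 and −0.03 when centred on the ribosomal protein genes.

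Around the deleted gene, 4 other genes within 50 kb of Ssu72 reached 1 FPKM in at least 1 cell type, and 3 of them did in MEFs and in hepatocytes. Atad3a, which encodes an ATPase of the mitochondrial membrane and lies 6767 bases to the right, had 39.3 FPKM in Ad-Cre MEFs against 26 FPKM in Ad-Luc MEFs (log2 ratio 0.60, 1.51-fold). It had 66.9 against 52.2 FPKM in hepatocytes (0.36) and 95.0 against 90.1 FPKM in ES cells (0.08). The MEF value just passed 1.5-fold, and it did not with 1 FPKM added (0.58) or with any centring (0.56 to 0.33). Mib2, a ubiquitin ligase gene 35561 bases to the left, had log2 ratios of 0.18 for MEFs, 0.33 for hepatocytes and 0.04 for ES cells, and B930041F14Rik, 8332 bases to the left, had −0.26, −0.05 and 0.10. Vwa1, 34622 bases to the right, had 1.13 FPKM in Ad-Cre ES cells against 1.02 FPKM in Ad-Luc ES cells. Below 1 FPKM in the other cell types, Vwa1 had 0.474 against 0.829 FPKM in MEFs (log2 ratio −0.81, 1.75-fold lower) and 0.844 against 0.603 FPKM in hepatocytes (0.48). In the cell types where a neighbour reached 1 FPKM, none was lower with Ad-Cre by 1.5-fold.

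The labels of the cells were checked with 7 markers for each cell type. ES cell markers summed to 6008 FPKM in Ad-Cre and 6125 FPKM in Ad-Luc ES cells, while in MEFs they summed to 0.954 and 0.752 FPKM. In ES cells none of them passed 1.5-fold, where 2.02% of all genes were higher and 0.722% lower. Hepatocyte markers summed to 5168 FPKM in Ad-Cre and 5990 FPKM in Ad-Luc hepatocytes. Of these, Ttr, Apoa1, Hnf4a and Serpina1a (4 of 7) were lower past 1.5-fold, where 5.69% of all genes were. Fibroblast markers summed to 7697 FPKM in Ad-Cre and 13590 FPKM in Ad-Luc MEFs. Of these, Col1a1, Col1a2, Col3a1 and Pdgfrb (4 of 7) were lower past 1.5-fold, where 8.58% of all genes were. Thy1 had a log2 ratio of −0.35. Vim (1498 against 1233 FPKM, log2 ratio 0.28) and Twist1 (50.2 against 42.7 FPKM, 0.23) went the other way. Of the mesothelial and epithelial markers in MEFs, Upk3b, Msln, Lrrn4 and Wt1 were lower and Krt18 higher past 1.5-fold. Of all genes in MEFs, 8.58% were lower and 7.42% higher. The list summed to 12.9 FPKM in Ad-Cre and 28.4 FPKM in Ad-Luc MEFs. In hepatocytes the same list summed to 2124 FPKM with Ad-Cre and 1418 FPKM with Ad-Luc, nearly all of it Krt8 and Krt18, keratins that hepatocytes make themselves, and Msln was higher (3.25 against 1.48 FPKM). In ES cells it summed to 215 FPKM with Ad-Cre and 180 FPKM with Ad-Luc. Fibroblast markers in hepatocytes summed to 981 FPKM with Ad-Cre and 617 FPKM with Ad-Luc, of which Vim had 966 and 604 FPKM. Kupffer and endothelial markers in hepatocytes summed to 17.1 FPKM with Ad-Cre and 16.9 FPKM with Ad-Luc, but single markers went in both directions. The endothelial marker Pecam1 was higher (4.63 against 2.94 FPKM, 1.58-fold), Kdr had 2.34 against 1.66 FPKM, the macrophage marker Cd68 had 7.92 against 10.5 FPKM, and the Kupffer marker Clec4f was at 0.0127 and 0.015 FPKM. In MEFs that list summed to 34.1 FPKM with Ad-Cre and 24.1 FPKM with Ad-Luc, with Kdr higher (7.64 against 3.93 FPKM) and Cd68 at 17.9 against 12.1 FPKM. The macrophage marker Emr1 was nearly level there, at 7.36 FPKM with Ad-Cre against 7.23 FPKM with Ad-Luc. The part of these shifts in the values of the phosphatases was not tested.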

How the data were processed

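RNA from 16 samples was sequenced, and the labels gave the 6 groups. The FPKM values were made by the authors as 1 value per gene and group in 3 tables. Tools listed in the submitters' processing notes are Cuffdiff 2.2.0, edgeR, DESeq, TopHat2 2.0.13 and CASAVA, with build mm10. The methods add ERCC spike-in RNA, stranded libraries of total RNA, Partek and ANOVA, among other tools. The tables also hold the authors' fold change, test statistic, p-value, q-value and status, which were not used, and neither were 9 lists chosen by them. With no value per sample, depth, SD and tests could not be had.

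The log2 ratio of Ad-Cre to Ad-Luc FPKM was computed with no pseudocount (pandas 2.3.3, numpy 2.4.6, Python 3.11.15). A gene passed when it differed by more than 1.5-fold, and shares are over genes with a mean of at least 1 FPKM. The call code was tested on simulated data. Positions are those deposited, counted from 1, and sequences came from GENCODE M21, RefSeq and the primer list of the study (Biopython 1.88). Some list genes stand in the tables under older symbols, Ddx26b for Ints6l and Emr1 for Adgre1.

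Members and lists were chosen with earlier results of these data known. Named were the members, Polr2a, Ppp1r10 and Ints6, other list genes past 1.5-fold, genes that overlap members or lie within 50 kb of Ssu72 and reach 1 FPKM in a cell type, and the 5 genes most like Ssu72 over the 6 values. Alternatives were folds of 2 and of 5 over 4, 1 FPKM added, 3 centrings, other minimum levels, protein-coding genes only, and 3 other scales for Ssu72. A few genes withheld from this work are not reported here.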

Additional observations from a re-analysis of the deposited data

How the results depend on the processing

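With no error per value, the changes below are of size only. Ssu72 was lower past 1.5-fold under every scaling, and past 2-fold, in each cell type. Members lower past the threshold in MEFs numbered 3 at the lower fold tried, 3 centred on the ribosomal protein genes and 2 centred on the housekeeping genes, where 1 was counted at 1.5-fold without centring. Under these settings 18.2%, 18.2% and 12.8% of all genes were lower in MEFs. At that lower fold, 3 members were higher in MEFs and 1 in hepatocytes, where 20.3% and 14.2% of all genes were. Of 120 recomputed ratios of members, 117 stayed on their side of 1.5-fold, 3 passed it (Ctdsp2 under 2 centrings and Ctdspl under 1, in MEFs), and 8 small ones changed sign.

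The share of all genes past 1.5-fold followed the minimum level. With no minimum except a value above 0, the higher genes came to 16.1% for MEFs, 14.9% for hepatocytes and 8.91% for ES cells. The lower ones came to 8.69% in hepatocytes and 4.88% in ES cells. At 5 FPKM, 3.41% were higher in hepatocytes, and 0.78% were higher and 0.449% lower in ES cells. Over protein-coding genes only, 0.435% were lower in ES cells. The Ad-Luc Ssu72 level in hepatocytes was 2.03 times that in MEFs relative to the housekeeping genes. The centrings of Ppp1r10, Atad3a, the pathway lists and the shares of all genes were chosen after seeing the data, and Ppp1r10 in hepatocytes kept log2 ratios of 0.97 to 1.09.

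No paired analysis was possible because each table gives 1 value per group, so the replicate block and leaving out replicates were not run.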

Other observations

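Over the 6 group values, each gene centred on its own mean of log2 FPKM, the genes nearest to Ssu72 among 9604 genes of at least 1 FPKM in all groups were A730008H23Rik, Ckap2l, Casc5, Gm20939 and Idi1, with root mean square differences of 0.72 to 0.82. The 6 values share 3 tables, and the likeness is a description. Ckap2l and Casc5 encode proteins of the mitotic spindle and the kinetochore, and Idi1 an enzyme of isoprenoid synthesis. A730008H23Rik had 2.25 FPKM in Ad-Cre MEFs against 5.55 FPKM in Ad-Luc MEFs, 3.6 against 9.57 FPKM in hepatocytes and 13.1 against 16.6 FPKM in ES cells. Like Ssu72, A730008H23Rik had the higher level in ES cells and lower values with Ad-Cre. This follows from its having been picked for likeness over these same values. Ckap2l had log2 ratios of −0.81 for MEFs, −0.93 for hepatocytes and 0.06 for ES cells, while Idi1 had −2.35 for MEFs but −0.10 for hepatocytes and −0.08 for ES cells. Among the CTD phosphatases and cofactors, Rprd1b came closest to Ssu72, at 1.22 and rank 867, and Ctdsp1 was the farthest, at 2.13 and rank 7708.

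Dppa5a, an ES cell marker, was listed at 10.9 FPKM in Ad-Cre hepatocytes and 2.80 FPKM in Ad-Luc hepatocytes, while Pou5f1, Zfp42 and Nanog were at or below 0.13 FPKM there.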
